A study of Mus musculus with 16 samples.

Results

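Collagen genes were examined on 16 one-colour arrays of mouse embryonic fibroblasts (MEFs), ES cells and iPS cells. A gene was included when its name in the array files was Col, a number, a and a number, which gave 40 of the 28095 gene names on the array and 79 of its 41174 probes. They comprised 11 fibrillar collagen genes, 6 type IV genes of the basement membrane and 23 genes of other collagen classes. Of the 40 genes, 36 rose well above background with some probe on 1 array or more, and these entered the tests. Col10a1, Col28a1, Col4a3 and Col6a6 were not well above background on any array and have no value here.

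The MEFs came from C57BL/6 embryos (1 array). The ES lines were B6ES, from C57BL/6, and TT2, from a C57BL/6 x CBA cross (1 array each), and 20D17 was an iPS line made with retroviruses from C57BL/6 x DBA cells (1 array). Of the iHAC1-iPS cells there were 4 clones (1-A3 and 1-D6, 1-B and 1-C3), which carried a human artificial chromosome (HAC, an episomal vector) with Klf4, c-Myc, Sox2 and Oct4. Another 4 clones, named iHAC2-iPS (2-B1 and 2-N, 2-C6 and 2-E), carried a HAC with those factors, further Oct4 copies and a p53 knockdown cassette. The 4 iHAC-free iPS lines were grown from iHAC2 cells that had lost the HAC and its EGFP marker: F-B1 came from 2-B1, F-C5 from 2-C6, F-E4 from 2-E and F-N7 from 2-N. Replicates were thus separate clones or lines, and MEFs and 20D17 had none. ES and iPS colonies were kept on feeder layers of mitomycin C-treated ICR MEFs, and how many feeder cells entered each RNA sample was not measured here.

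Collagens are secreted or membrane proteins of the extracellular matrix whose chains wind into a triple helix, which requires glycine at regular spacing along the chain. Fibrillar collagens assemble into the fibrils of skin, bone, tendon and cartilage, and fibroblasts are a main source of types I and III. Type IV collagen builds the sheet-like network of basement membranes and is one of the first matrix proteins of the early mouse embryo. The remaining classes decorate fibrils, form beaded filaments or anchoring fibrils, or span the cell membrane.

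The repeat of the triple helix can be read in the array's own 60-base probes. Of all 41174 probes, 3 held at least 6 glycine codons (GGN) in a row, 1 every 9 bases, in a reading frame without a stop codon, and all 3 were probes of fibrillar collagen genes. They are shown because their sequence lies in the part of the transcript that makes the protein a collagen, with the glycine codons in capitals, and none of them was the brightest probe of its gene, on which the counts below rest.
Col5a1 (mm9, chr2:27842243-27844666, + strand): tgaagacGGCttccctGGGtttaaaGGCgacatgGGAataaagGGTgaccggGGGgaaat
Col5a3 (mm9, chr9:20590066-20590795, - strand): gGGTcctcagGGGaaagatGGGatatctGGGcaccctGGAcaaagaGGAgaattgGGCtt
Col11a2 (mm9, chr17:34189287-34189453, + strand): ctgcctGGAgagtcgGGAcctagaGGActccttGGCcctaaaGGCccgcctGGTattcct
The Col5a3 probe holds 7 such codons in a row and each of the others 6. Each genomic span is longer than 60 bases.

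Levels are log2 of the processed signal minus the 75th percentile of the array, so 0 is the signal that 75 percent of an array's spots do not exceed, and 1 unit is a 2-fold step. Levels of different genes were not set against each other, since probes differ in brightness. A gene was called higher or lower when limma's Benjamini-Hochberg adjusted p was under 0.05 over all 31415 probes tested and the difference was at least 2-fold. Beside each main count over the 36 genes stands the percentage of all 21143 genes called in the same direction. The same percentages apply to counts by class and over marker and pathway lists in that comparison, where they are not always repeated. Between 54.2% and 65.8% of an array's spots were well above background, least on the iHAC2 array 2-B1, and collagen genes well above background numbered 25 (2-N) to 36 (MEF) per array.

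Marker genes were read first. The 9 pluripotency markers on the array were well above background on both ES arrays, 20D17 and all iHAC2 and iHAC-free arrays, with means of 2.45 to 4.00. In the iHAC1 clones these means were -1.54 (1-A3), -0.35 (1-B), 0.64 (1-C3) and -1.46 (1-D6), and 6 of the 9 genes, among them Zfp42, Esrrb, Dppa3 and Dppa5a, were called lower than in ES cells. Pou5f1, which encodes Oct4 and sits on the HAC, was called higher. The iHAC1 clones therefore stood apart from the other lines named iPS. In the MEF array, 4 of the 9 markers were well above background.

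MEFs and ES cells mark the ends of the range over which the iPS lines can be placed. With 1 MEF array there is no test, and a difference of at least 4-fold was used. By that size 21 of 36 collagen genes were higher in MEFs, against 10.4% of all 21139 genes compared, and 0 were lower, against 7.44%. The median difference over the collagen genes was 2.30, beside -0.17 over all genes. Among fibrillar genes 9 of 11 were higher by this size, and among type IV genes 0 of 5 were. Col4a1 and Col4a2 lay just under that size, at 1.95 and 1.87, and passed it with quantile normalization and without TT2. Another Col4a6 probe was 3.77 higher in MEFs, where the counted probe gave -0.33. Of the remaining classes it was 12 of 20.

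The fibrillar genes with the widest distance were Col2a1, the cartilage collagen, at 3.16 in MEFs and -1.88 (B6ES) and -0.99 (TT2) in ES cells, and Col3a1, which makes type III collagen of soft tissues, at 5.31 against -0.36 and 1.97. Col19a1, a fibril-associated chain, was at -1.90 in MEFs on its brightest probe, which was not well above background on the other 15 arrays, a difference of at least 13.5-fold from ES cells. Of its other 3 probes, 2 were well above background in MEFs alone, and 1 was so in an iHAC2 clone and not in MEFs. Col14a1, which binds fibrils through decorin, stood at -0.75 in MEFs and -5.86 and -4.31 in ES cells. Among the genes that did not reach 4-fold, Col13a1 (-1.72), Col18a1 (-1.51), Col24a1 (-1.10) and Col9a2 (-1.06) had lower levels in MEFs than in the ES mean by at least 2-fold. The other Col24a1 probe went the opposite way and was 2.84 higher in MEFs.

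The size of this count depended on the ES line. Left without B6ES it was 15. Without TT2, 25 genes were higher in MEFs and 1, Col13a1, was lower. B6ES had lower levels than TT2 of most fibrillar genes. Col1a1, one of the chains of type I collagen (its probe lies at mm9 chr11:94813075-94813134), was at 7.04 in MEFs, 3.84 in B6ES and 5.59 in TT2. With only probes well above background on all 16 arrays the count was 11, and with normexp background correction it was 13.

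The retroviral line 20D17, which has 1 array and no test, lay above the ES mean for 32 of the 36 genes, against 46.1% of all genes, with a median difference of 1.01, beside -0.04 over all genes. Its largest differences from ES were in Col22a1 (2.48), a chain found at muscle-tendon junctions, and Col8a2 (2.07), a chain of the hexagonal network under the corneal endothelium.

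iHAC1 clones were compared with ES cells to ask how clones that keep the reprogramming factors on a HAC differ from blastocyst-derived pluripotent cells. Of the 36 collagen genes, 15 rose, against 7.13% of all genes, and 5 fell, against 7.6%. The median difference was 0.91 over the collagen genes and 0.05 over all genes. Among fibrillar genes 8 of 11 rose and 0 fell (median 1.72). For type IV it was 2 of 5 and 0 (median 0.17), and for the other classes 5 rose and 5 fell of 20 (median 0.48).

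**Figure D1:**
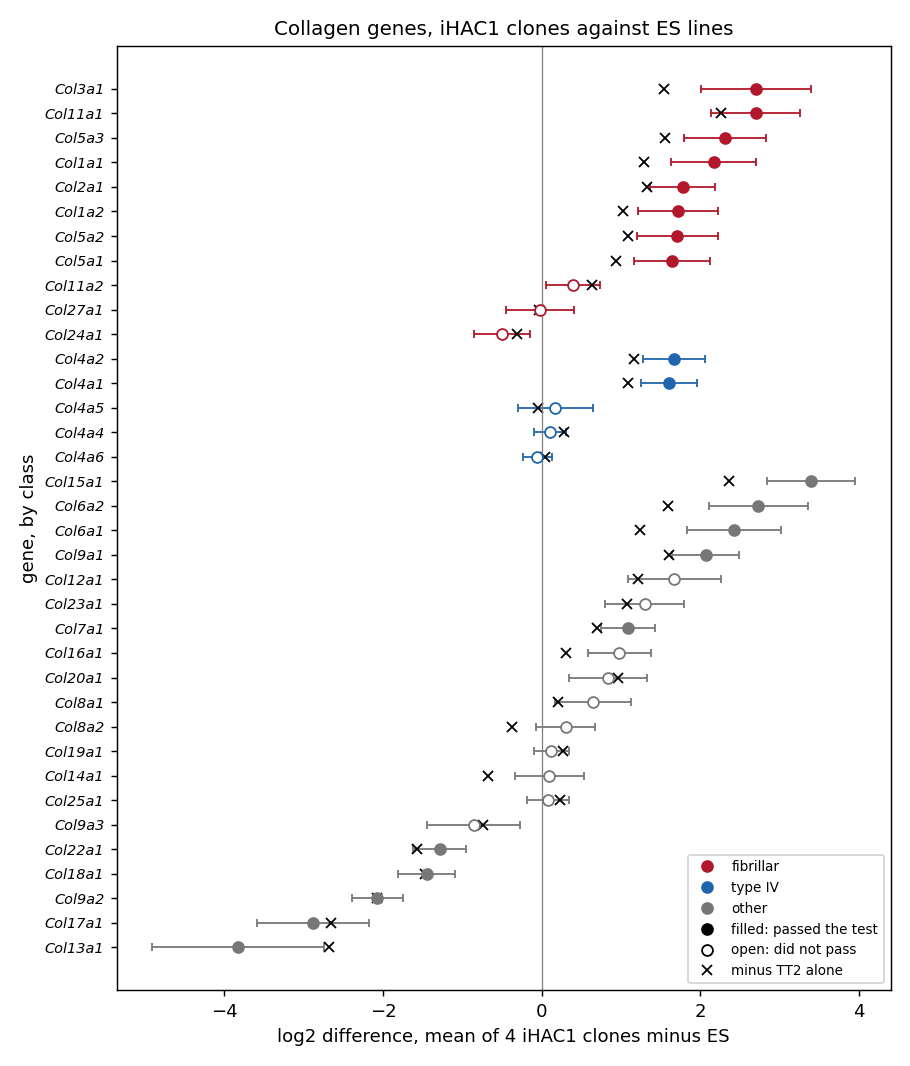
Log2 difference of the mean of the 4 iHAC1 clones from the mean of the 2 ES lines for 36 collagen genes, by class, with bars of 1 standard error of the limma fit; filled circles passed the test. Crosses give the difference from TT2 alone, which for the fibrillar genes that passed is smaller than that from both lines, and for Col9a2 is the same. The plotted probes of Col9a1, Col13a1 and Col17a1 were not well above background in 1 of the 2 groups.

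These fibrillar calls rested on B6ES. Without it, 2 of the 20 collagen calls were left, Col15a1 higher and Col9a2 lower, whereas 18 genes were called without TT2. Set against TT2 alone, the 11 fibrillar genes had a median difference of 1.08, and set against B6ES alone, of 2.36. In both cases 9 of the 11 were above 0. With slide as a fixed block 11 of 36 genes were called, and in a fit of these groups alone 10 were.

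The type I chains showed the pattern. Col1a1 was at 7.33, 6.57, 6.09 and 7.55 in clones 1-A3, 1-B, 1-C3 and 1-D6. All 4 clones lay above both ES lines and within 1 unit of the MEF level, 7.04. The difference from ES was 2.17 ± 0.54 (SE, n = 4 clones and 2 lines; limma adjusted p = 0.0145), and it was 1.29 without B6ES, with an adjusted p of 0.226. The partner chain Col1a2 was at 7.09, 6.29, 5.89 and 7.30 in the clones and at 4.23 (B6ES) and 5.62 (TT2) in ES cells, a difference of 1.72 ± 0.50 (limma adjusted p = 0.0292). The probe of Col1a2 that was not used for counts gave 0.49 and was not called. It was well above background in MEFs alone, so that value compares signals near background.

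Col3a1 was at 3.80 (1-A3), 3.81 (1-B), 2.34 (1-C3) and 4.10 (1-D6), above the ES lines in every clone, though clone 1-C3 lay only 0.37 above TT2. The difference was 2.71 ± 0.69 (limma adjusted p = 0.017). Col11a1, which sits inside cartilage fibrils and controls their width, was at 2.68, 0.56, 0.17 and 1.77 in the same clones against -1.85 (B6ES) and -0.96 (TT2). Its difference, 2.70 ± 0.56 (limma adjusted p = 0.00612), was 2.26 without B6ES. The call was lost there and in a fit of the compared groups alone. All 3 of its probes were called, but the 2 dimmer ones were well above background in 2 iHAC1 clones and in no ES line. Their calls therefore set signal against values near background. On the brightest probe, clone 1-A3 alone exceeded the MEF level of 2.12.

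Of the type V chains, which start and limit the growth of type I fibrils, Col5a1, Col5a2 and Col5a3 differed by 1.65, 1.71 and 2.31 and each was called. The triple-helix probe of Col5a1 shown above was well above background on all 16 arrays. It read -1.58, -2.08, -2.45 and -1.25 in the iHAC1 clones, and -3.67 (B6ES) and -3.06 (TT2) in ES cells. No clone overlapped the ES lines, and its difference, 1.53 ± 0.45 (limma adjusted p = 0.0323), was close to the 1.65 ± 0.48 of the gene's brightest probe. The triple-helix probe of Col5a3, well above background on 6 arrays, gave 1.11 and was not called, and that of Col11a2 gave -0.09. Col2a1 rose by 1.78 ± 0.41 (limma adjusted p = 0.00993). Its other tested probe, also well above background on all 16 arrays, gave 0.58 and was not called. The fibrillar genes that did not pass were Col11a2 (0.40), Col27a1 (-0.02) and Col24a1 (-0.50). Probes of Col24a1, Col27a1 and Col11a2 disagreed in sign. The calls of Col1a2, Col5a1 and Col5a2 were also lost without clone 1-A3 and without clone 1-D6.

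**Figure D2:**
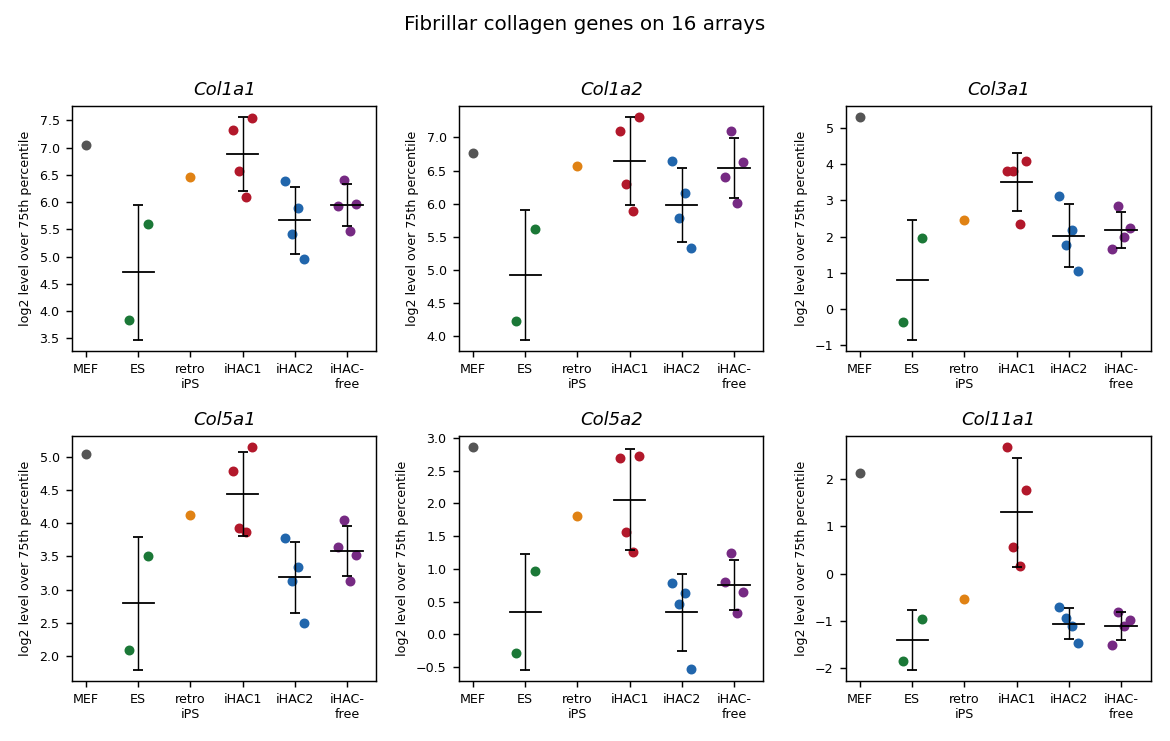
Log2 level over the 75th percentile of the array for 6 fibrillar collagen genes, with 1 point per array, by group; black lines are group means with 1 SD for groups of 2 or 4 arrays. In each panel the mean of the iHAC1 clones is the highest of the replicated groups, and the ES lines lie apart from each other, B6ES below TT2.

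Slide 2 held both ES lines, 20D17 and 1 iHAC1 clone, 1-D6. On it 1-D6 was above the ES mean by 2.84 for Col1a1, 3.29 for Col3a1 and 3.18 for Col11a1. On the same slide 20D17 was above the ES mean by 1.74, 1.64 and 0.87. The other 3 iHAC1 clones, on slide 1, were above the ES mean by 1.95, 2.51 and 2.54. With slide as a fixed block the calls of Col1a1 and Col3a1 were lost, and that of Col11a1 was kept.

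Fibroblast markers moved with the fibrillar genes. The mean level of 16 fibroblast markers that are not collagens (Thy1, Pdgfra, Pdgfrb, Fn1 and others) was 3.91 in MEFs, 1.33 in B6ES, 2.68 in TT2 and 3.36 in 20D17. It was 2.72 to 3.64 in iHAC1 clones, 1.36 to 2.80 in iHAC2 clones and 2.31 to 2.66 in iHAC-free lines. The mean of the 11 fibrillar genes followed it, from -0.29 (B6ES) and -0.19 (2-N) to 2.22 (1-D6) and 2.73 (MEF). Over the 15 arrays without MEF the correlation of these means was 0.93. It was 0.88 without the 2 arrays farthest from the marker median and 0.93 for deviations from group means over 14 arrays. These are descriptions over arrays that share slides and groups. Of the 16 markers 3 rose in iHAC1 clones against ES (Pdgfrb, Fbn1 and Fap) and 0 fell. Their part in the collagen result was not tested. In these bulk samples, fewer cells of a type and less RNA per cell cannot be told apart.

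**Figure D3:**
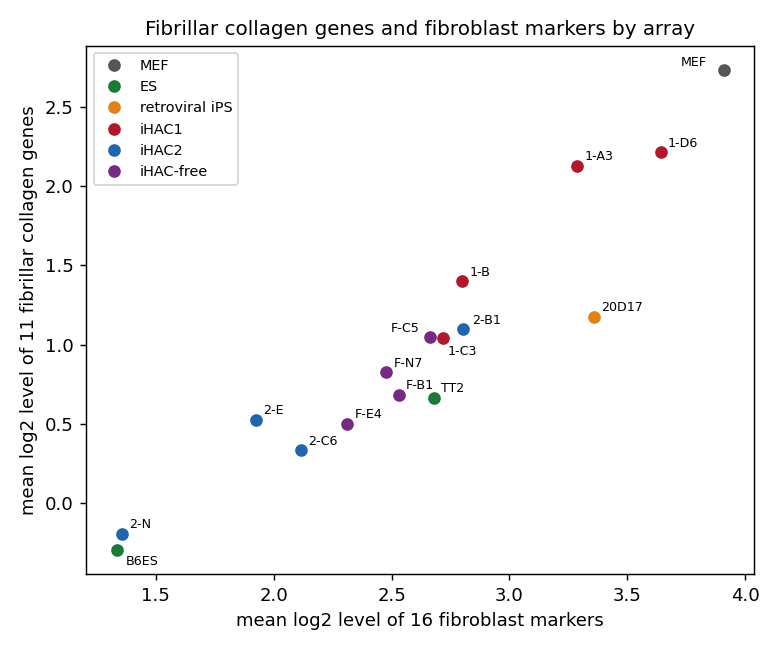
Mean log2 level of the 11 fibrillar collagen genes (vertical) against the mean of 16 fibroblast markers that are not collagens (horizontal), with 1 point per array. B6ES and the iHAC2 clone 2-N lie lowest on both axes and MEF highest; 20D17 has a fibroblast marker mean of 3.36 with a fibrillar mean of 1.18, below that of clones 1-A3 and 1-D6.

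Gene by gene, the correlation with the fibroblast marker mean over those 15 arrays was above 0.8 for 14 of the 36 collagen genes and below 0 for 8. The shares of all genes with such values were not determined, so these counts cannot be set against them. Among those below 0 was Col19a1 (-0.37), which was not well above background on any of the 15 arrays. Col7a1, the anchoring fibril of the dermal junction, had the highest value (0.96), followed by Col5a1 (0.95) and Col4a2 (0.95). Col18a1 (-0.55), Col9a2 (-0.53) and Col17a1 (-0.48) had the lowest. For deviations from group means over 14 arrays these last were -0.13, -0.48 and -0.19. Those of Col7a1, Col5a1 and Col4a2 were 0.92, 0.94 and 0.95.

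The type IV genes lie head to head in pairs. Col4a1 and Col4a2, whose products form the common network of basement membranes, rose by 1.61 ± 0.36 (limma adjusted p = 0.00875) and 1.67 ± 0.39 (limma adjusted p = 0.0108) in iHAC1 clones against ES cells. Without B6ES the differences were 1.08 and 1.17, with limma adjusted p-values of 0.148 and 0.165. Col4a1 read 2.49, 2.43, 1.94 and 2.96 in clones 1-A3, 1-B, 1-C3 and 1-D6, against 0.32 (B6ES), 1.37 (TT2) and 2.80 (MEF). Over all 16 arrays the correlation of Col4a1 with Col4a2 was 0.98, and it was 0.97 for deviations from group means over 14 arrays. The pair Col4a5 and Col4a6 on the X chromosome had 0.22 and 0.36. Col4a4, a chain of the network found in kidney glomeruli, was at 0.30 to 1.36 in every ES and iPS array and at -0.01 in MEFs, and it differed by 0.11 ± 0.20 from ES in the iHAC1 clones. Of 11 parietal and primitive endoderm markers, a cell type that deposits much type IV collagen, 1 rose (Sparc) and 2 fell (Sox7 and Amn). Of all genes, 7.13% rose and 7.6% fell.

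Other chains of 1 molecule varied in how closely they moved together. The correlation over 16 arrays was 0.99 for Col6a1 with Col6a2, 0.97 for Col5a1 with Col5a2 and 0.93 for Col1a1 with Col1a2. It was 0.83 for Col8a1 with Col8a2 and 0.67 for Col11a1 with Col11a2, and for deviations from group means these were 0.46 and 0.32. For the type IX chains it was -0.73 for Col9a1 with Col9a2 and 0.43 for Col9a2 with Col9a3, although Col9a1 was well above background on 3 arrays only.

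**Figure D4:**
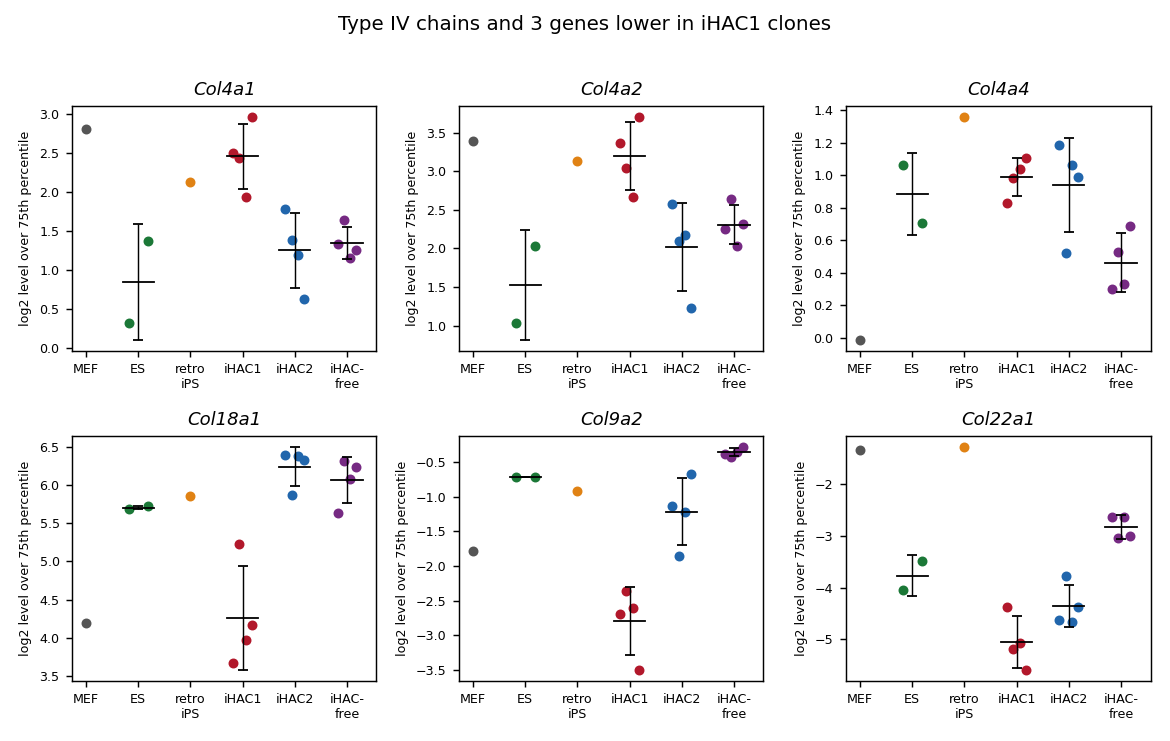
Log2 level over the 75th percentile of the array for Col4a1, Col4a2 and Col4a4 of type IV and for Col18a1, Col9a2 and Col22a1, with 1 point per array, by group; black lines are group means with 1 SD for groups of 2 or 4 arrays. Col4a1 and Col4a2 share their pattern over the groups; the 4 iHAC1 clones lie below all ES, iHAC2 and iHAC-free arrays for Col9a2 and Col18a1.

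In the other classes the genes that rose in iHAC1 clones were Col15a1, Col6a1, Col6a2, Col7a1 and Col9a1. Col15a1, a multiplexin of the zone below basement membranes, was at -2.56, -2.49, -4.07 and -2.54 in clones 1-A3, 1-B, 1-C3 and 1-D6, at -7.34 in B6ES, -5.29 in TT2 and -4.36 in MEFs. The clones thus lay above both ES lines and above the MEF array. It was well above background in 1 of the 2 ES lines, TT2, so the B6ES level is at the floor and the size of the difference from the ES mean is not a measured fold. The fitted difference was 3.40 ± 0.56 (limma adjusted p = 0.00176) and 2.37 against TT2 alone, but normexp background correction lowered it to 0.99, below 2-fold. Col6a1 and Col6a2, the chains of beaded filaments around cells, differed by 2.43 and 2.73, and by 1.25 and 1.60 without B6ES, where neither was called. Col7a1 differed by 1.09 ± 0.34 (limma adjusted p = 0.0373), a call lost without B6ES (0.70), without 1-A3, 1-B or 1-D6, and in a fit of the compared groups alone. Col9a1 was well above background in 2 of 4 iHAC1 clones and in no ES line, and was at least 1.43-fold higher (limma adjusted p = 0.00546), a call lost without B6ES and under normexp background correction, where the difference was 0.31.

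Col9a2, Col13a1, Col17a1, Col18a1 and Col22a1 fell. Col9a2, a fibril-associated chain of cartilage, was the one collagen call against ES that held under all 13 alternatives. It was at -2.68 (1-A3), -2.36 (1-B), -2.60 (1-C3) and -3.49 (1-D6), at -0.72 in both ES lines, -0.92 in 20D17 and -1.78 in MEFs. Every iHAC1 clone was below every other array. The difference was -2.07 ± 0.32 (limma adjusted p = 0.00124) and ranged from -2.77 to -1.38 over the alternatives. Col18a1, the multiplexin of basement membranes from which endostatin is cut, was at 3.67, 5.23, 3.97 and 4.17 in the clones against 5.69 and 5.72 in ES lines, 5.85 in 20D17 and 4.19 in MEFs. It fell by 1.45 on the log2 scale (SE 0.36, limma adjusted p = 0.0139). The call was lost without either ES line, with slide as a fixed block and in a fit of the compared groups alone. Against TT2 alone the difference was -1.47.

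Col13a1 and Col17a1 are transmembrane collagens of cell adhesion sites, Col17a1 of the hemidesmosome. The brightest probe of each, on which the counts rest, was not well above background in any iHAC1 clone and was in both ES lines. Col17a1 was at -3.25 (B6ES) and -3.69 (TT2) in ES cells, and the clones read -6.36, -6.99, -6.42 and -5.63, so it was at least 3.90-fold lower (limma adjusted p = 0.0133). On that probe Col13a1, at -2.02 in B6ES and -4.32 in TT2, was at least 4.87-fold lower (limma adjusted p = 0.0262). The other Col13a1 probe was well above background on 1 array only, that of 1 iHAC1 clone and of no ES line, and gave a difference of 0.31, so the bound holds for the counted probe and not for the gene. Both calls were lost without B6ES (differences of -2.68 and -2.66 for Col13a1 and Col17a1), under normexp background correction (-0.92 and -0.67) and with slide as a block. That of Col17a1 was also lost without TT2, and that of Col13a1 without 1-D6. Col22a1 fell by 1.29 on the log2 scale (SE 0.33, limma adjusted p = 0.017), a call lost without either ES line, in a fit of the compared groups alone and under normexp background correction (-0.34), and was well above background in 1 of the 4 clones. On slide 2, clone 1-D6 was below the ES mean for Col9a2 (-2.77) and Col18a1 (-1.54). It was also below the ES mean for Col13a1, Col17a1 and Col22a1. Their counted probes were not well above background in most or all iHAC1 clones, so those sizes are not given. Of 7 cartilage markers tested that are not collagens, 2 fell (Acan and Comp) and 0 rose, while Col2a1, Col9a1 and Col11a1 were among the genes that rose.

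The other 10 genes of these classes did not pass the test against ES. Their differences ran from -0.85 (Col9a3) to 1.68 (Col12a1). Col12a1, a fibril-associated chain of tendon and ligament, had an adjusted p of 0.0612 by limma, and Col23a1 (1.30) one of 0.0827. Between these ends lay Col25a1, Col14a1, Col8a2, Col8a1, Col20a1 and Col16a1, and Col19a1 was not well above background in either group. Col4a5 and Col4a6 of type IV differed by 0.17 and -0.05.

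The windows of 250 bases before the annotated starts (RefSeq, GRCm38.p6) are given for Col1a2, a gene of the fibrillar group that rose, and for Col9a2, which fell. Capitals mark matches on either strand to the box named for its letters, CCAAT, to the core of the GC box, which reads GGGCGG, and to the TATA box, searched for as TATAAA. The motifs do not share bases in these windows.
Col1a2 (GRCm38.p6, chr6:4505368-4505617, + strand): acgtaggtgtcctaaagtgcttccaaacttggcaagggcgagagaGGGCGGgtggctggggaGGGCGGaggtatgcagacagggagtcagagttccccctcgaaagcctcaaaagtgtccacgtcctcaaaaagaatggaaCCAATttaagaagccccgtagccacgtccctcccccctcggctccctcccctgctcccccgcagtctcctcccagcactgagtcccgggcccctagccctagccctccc
Col9a2 (GRCm38.p6, chr4:121039316-121039565, + strand): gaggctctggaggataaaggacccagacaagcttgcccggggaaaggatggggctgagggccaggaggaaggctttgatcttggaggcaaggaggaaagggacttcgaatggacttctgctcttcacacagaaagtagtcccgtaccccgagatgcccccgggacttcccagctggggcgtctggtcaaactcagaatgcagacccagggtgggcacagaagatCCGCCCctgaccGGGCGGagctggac
Both windows hold 2 matches to GGGCGG, and the Col1a2 window also holds 1 to CCAAT. Of the 40 genes 32 had such a window. GGGCGG was in 19 of them (59.4%) and in 32.9% of all 27025 genes' windows. CCAAT was in 34.4% and 34.5%, and TATAAA in 15.6% and 13.0%. A match is a string of letters, not a site shown to be bound.

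Genes that modify, process or bind collagen were read beside the collagens, from lists of 18, 13, 8 and 10 genes. Against ES, iHAC1 clones had 3 of 18 folding and modification genes higher and 0 lower. They were Colgalt2, which adds galactose to collagen (at least 1.33-fold), P3h3, named as a prolyl 3-hydroxylase (1.60), and P4ha1, a subunit of the main prolyl hydroxylase (1.37). P4ha1 was not high in iHAC1 clones alone. Its means were 1.74 in iHAC1 clones, 2.04 in iHAC2 clones, 1.58 in iHAC-free lines and 0.38 in ES cells. Of 12 tested genes for propeptide cleavage and crosslinking 5 were higher and 0 lower. Among them were Adamts2 and Bmp1, which cut off the propeptides (2.06 and 1.58), the related protease Adamts3 (at least 2.01-fold), and Loxl2, which crosslinks fibrils (1.86). Of 8 collagen-binding proteoglycans 2 were higher, Aspn (3.51) and Bgn (1.42). Of 9 tested receptors 2 were higher, the integrin chain Itga11 (3.08) and the uptake receptor Mrc2 (1.57). These lists were written with earlier results of the series known. How far the calls on them rest on B6ES is not reported here.

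iHAC1 and iHAC2 clones were compared to ask what differs between the HAC constructs. They were scanned in different sessions, so construct and session cannot be told apart. Of 36 collagen genes 16 were higher in iHAC1, against 8.7% of all genes, and 4 were lower, against 11.6%. The median difference was 1.03, beside -0.05 over all genes. Of the fibrillar genes 7 of 11 were higher, of type IV 2 of 5 and of the others 7 of 20, with 4 of the others lower. Without clone 1-D6 the count was 12 and without 2-N it was 13.

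The calls of Col11a1, Col2a1, Col5a2, Col4a1 and Col18a1 held under every alternative that tested them. Col11a1 was at -0.71, -0.93, -1.12 and -1.47 in clones 2-B1, 2-C6, 2-E and 2-N, all below the 4 iHAC1 clones, a difference of 2.35 ± 0.46 (limma adjusted p = 0.0025). Col5a2 was at 0.78, 0.46, 0.63 and -0.53 in the iHAC2 clones, again with no overlap, and differed by 1.72 ± 0.42 (limma adjusted p = 0.00767). Col1a1 differed by 1.22 ± 0.44 (limma adjusted p = 0.0455), and its clones overlapped: 2-B1 was at 6.38, above the 6.09 of 1-C3. That call was lost without 1-A3, 1-B, 1-D6, 2-C6, 2-E or 2-N, with differences down to 0.98. Col27a1, a fibrillar chain of cartilage, was 1.50 ± 0.35 higher (limma adjusted p = 0.00622), while its difference between iHAC1 clones and ES cells was -0.02 ± 0.43. Its other probes were not called. The lowest of their differences, -0.06, came from a probe not well above background in either group. Normexp background correction lowered the difference of the counted probe to 0.63. Col23a1, a transmembrane chain, was well above background in all 4 iHAC1 clones and in none of the iHAC2 clones, a difference of at least 1.54-fold. Another of its probes was detected in the same clones, with means of -4.45 in iHAC1 and -5.74 in iHAC2, and was not called. A further probe, which gave -0.36, was not well above background in either group.

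Col17a1, Col18a1, Col9a2 and Col20a1 were lower in iHAC1. Col18a1 was at 6.40, 5.87, 6.39 and 6.34 in the iHAC2 clones, above all 4 iHAC1 clones, and the difference was -1.99 ± 0.29 (limma adjusted p = 0.000501). Col17a1 was at least 5.34-fold lower (limma adjusted p = 0.00123). Among the 16 fibroblast markers 6 were higher in iHAC1 (Pdgfrb, Fbn1, Cd44, Acta2, Thbs1 and Vim) and 0 lower. Of the pathway lists, 3 of 18 modification genes, 3 of 12 processing genes (Loxl1 1.41, Loxl2 1.45 and Loxl3 1.43), 1 of 8 proteoglycans (Prelp, 2.12) and 1 of 9 receptors (Mrc2, 1.29) were higher. None of those genes was called lower. Of all genes 8.7% were higher, and the counts of 1 of 8 and 1 of 9 are near that share. The part of the fibroblast markers in the collagen result was not tested.

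iHAC1 clones against iHAC-free lines gave 7 genes higher, against 8.91% of all genes, and 7 lower, against 11.7%. Slides and software version again split as these groups do. Higher were Col11a1, Col5a2 and Col5a3 of the fibrillar class, Col4a1, and Col15a1, Col6a2 and Col9a1. Col11a1 was at -1.51, -0.81, -1.11 and -0.98 in F-B1, F-C5, F-E4 and then F-N7, and the difference was 2.40 ± 0.46 (limma adjusted p = 0.00188). The type I chains did not pass the test, with differences of 0.94 for Col1a1 and 0.11 for Col1a2. Col1a1 in the iHAC-free lines was at 5.94, 6.41, 5.46 and 5.96, overlapping the 6.09 of 1-C3. Lower in iHAC1 were Col13a1, Col17a1, Col18a1, Col20a1, Col22a1, Col9a2 and Col9a3. Col17a1 was at least 9.59-fold lower (limma adjusted p = 0.000262) and Col13a1, on its counted probe, at least 8.38-fold lower (limma adjusted p = 0.00189). Col9a2 was at -0.39, -0.42, -0.35 and -0.29 in the iHAC-free lines, a difference of -2.42 ± 0.26 (limma adjusted p = 6.47e-05). Col11a1, Col13a1, Col17a1, Col18a1 and Col9a2 held under every alternative that tested them. Without clone 1-D6 the count was 8, with normexp background correction 9, and with the strict limit on dim probes 7. Of the 16 fibroblast markers 1 (Pdgfrb) was higher, a count near the 8.91% of all genes, and 0 were lower.

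iHAC2 clones against ES cells gave 2 genes higher, against 3.47% of all genes, and 1 lower, against 2.89%, counts near that background. Col20a1, a fibril-associated chain, was at -2.68, -3.64, -3.57 and -3.03 in clones 2-B1, 2-C6, 2-E and 2-N against -5.17 (B6ES) and -5.40 (TT2), and differed by 2.06 ± 0.49 (limma adjusted p = 0.0246). Col15a1 differed by 2.05 ± 0.56 (limma adjusted p = 0.0371) and Col27a1 by -1.52 ± 0.43 (limma adjusted p = 0.0408). Col20a1 and Col15a1 were each well above background in 1 of the 2 ES lines. The count was 0 with normexp correction, 0 with only probes well above background on all arrays and 0 in a fit of the compared groups alone. It was 1 without B6ES and 1 without TT2. No fibrillar gene rose in this comparison, and of the fibroblast markers 0 were called. The iHAC2 arrays had 54.2% to 59.9% of spots well above background, and slides and software version cannot be told apart from the groups.

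iHAC-free lines against ES cells gave 0 calls in either direction by limma, against 0.184% of all genes in each. At an unadjusted p under 0.05 there were 9 of 36, of which 8 were higher in the iHAC-free lines. At that threshold 8.98% of all genes were higher and 11.1% lower. With slide as a random block 1 gene was called. The median difference was 0.62 over the collagen genes and 0.03 over all genes. For Col1a2 the lines were at 6.02 (F-E4), 6.40 (F-B1), 6.63 (F-N7) and 7.11 (F-C5). All 4 were above TT2 (5.62) and B6ES (4.23), but the difference of 1.61 ± 0.50 did not pass (limma adjusted p = 0.119).

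Loss of the HAC was followed by comparing iHAC2 clones with the lines derived from them. Of 36 collagen genes 0 were higher in iHAC2, against 0.227% of all genes, and 1 was lower, Col22a1, against 0.582%. Col22a1 was at -4.63, -3.78, -4.66 and -4.38 in clones 2-B1, 2-C6, 2-E and 2-N and at -2.64, -3.04, -2.63 and -3.01 in their derived lines, in the same order. Each clone was below every line derived, a difference of -1.53 ± 0.27 (limma adjusted p = 0.0237), and on slides 3 and 4 apart it was -1.68 and -1.39. With the clone of origin as a random block 1 gene was called, and as a fixed block 0 were. It was well above background in 1 of the 4 iHAC2 clones. The call was lost without any 1 of the 4 iHAC-free lines and without 2-B1 or 2-E, and without 2-N the count was 3. Col13a1 was at -6.42, -6.73 and -6.84 in clones 2-B1, 2-C6 and 2-E, at -2.53 in 2-N, and at -2.75, -2.02, -3.10 and -1.66 in the iHAC-free lines in the order of their clones. Clone 2-N thus overlapped the iHAC-free lines and the others did not, and the difference of -3.24 ± 0.88 did not pass (limma adjusted p = 0.102). Of the 11 fibrillar genes, 0 passed, and the median difference was -0.28. Over the 36 collagen genes the median difference was -0.34, beside 0.06 over all genes. By any size, 8 of the 36 were higher in iHAC2 clones, against 56.2% of all genes.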

How the data were processed

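RNA from 16 samples was labelled with Cy3 and hybridised to Agilent mouse arrays, 1 array per sample, on 4 slides. Per the file headers, the deposited intensity of each spot was extracted with Feature Extraction 10.7.1.1 or 10.7.3.1, with background subtracted by the software. The authors also deposited log2 values normalised in GeneSpring, used here as an alternative. Control and outlier spots were left out, and log2 processed intensity was centred on the 75th percentile of each array. The 31415 probes that were well above background on 1 array or more were fitted with limma 3.58.1 in R 4.3.3 over 6 groups and all 16 arrays, with Benjamini-Hochberg adjustment. Counts use 1 probe per gene, that with the highest mean level. Where a group was not well above background on any array, a difference is a bound against the lowest signal well above background. No spot was saturated, and the number of arrays limits the precision.

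Every collagen gene was accounted for. Of each pathway list, up to 4 called genes with the largest differences were named in a comparison. The members and the lists were chosen with earlier results of these data known. MEFs (1 array) were compared by size only. Slides 1 and 2, extracted with version 10.7.1.1, held MEFs, ES cells, 20D17 and iHAC1 clones. Slides 3 and 4, extracted with version 10.7.3.1, held the iHAC2 and iHAC-free arrays. iHAC-free lines pair with iHAC2 clones through their clone of origin, as the sample names and the study's methods give it. Deviations from the group means of the paired arrays correlated at -0.10, -0.48, -0.05 and 0.22. The p-values measure the spread between clones or lines. Names are those of the array design, and probe positions are the mm9 positions in the files. Windows before gene starts were read from RefSeq (GRCm38.p6). Of the further probes, 4 carry an older name for a gene now called a collagen and were not members. The tests were tried on simulated data. Alternatives were normexp background correction (offset 50), quantile normalisation, the deposited log2 table, filters on dim probes, blocks for slide and clone of origin, a fit of the compared groups alone, and leaving out each array.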

Additional observations from a re-analysis of the deposited data

Results flagged for a closer look

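An array lay far from the other 3 of its group in 6 of 108 gene and group combinations, where chance alone gives about 1 in 20, or 5.4. In the iHAC2 clones, Col13a1 was at -2.53 in 2-N, the one clone where it was well above background, and at -6.84 to -6.42 in the others. Col18a1 was at 5.87 in 2-C6 and at 6.34 to 6.40 in the others. In the iHAC1 clones, 1-C3 was low for 2 genes, Col15a1 at -4.07 (others -2.56 to -2.49) and Col3a1 at 2.34 (others 3.80 to 4.10). In the iHAC-free lines, F-C5 was at -3.81 for Col24a1 (others -3.38 to -3.35) and at -3.26 for Col4a5 (others -3.54 to -3.50).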

How the results depend on the processing

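Of 58 calls of a collagen gene in a comparison, tried under 803 alternatives in all, 647 alternatives kept the call, 156 lost it and 0 reversed its direction. Collagen calls for iHAC1 clones against ES cells (20) numbered 10 in a fit of these groups alone, 11 with slide as a fixed block, and 2 to 20 when 1 array was left out, the lowest without B6ES. Against iHAC-free lines (14) they numbered 9 with normexp correction, 7 under the strict filter (probes well above background on all arrays) and 8 to 16 without 1 array. Against iHAC2 clones (20) the range without 1 array was 12 to 22. For iHAC2 clones against ES cells (3) there were 5 with no filter on dim probes, 0 with normexp correction, 0 with only the compared groups, 0 with the strict filter and 1 to 3 without 1 array. For iHAC-free lines against ES cells (0) there was 1 with slide as a random block. For iHAC2 clones against iHAC-free lines (1) there were 0 with normexp correction, 0 with the strict filter and 0 to 3 without 1 array. There, the replicate block by clone of origin gave 1 as a random block and 0 as a fixed block with only those groups, an alternative chosen after seeing the data; no other comparison has paired samples. The MEF count (21) was 13 with normexp correction, 11 with the strict filter and 15 to 26 without 1 ES line. Of the 26, found without TT2, 1 was lower in MEFs. The strict filter tests fewer genes; the cause of the other changes was not tested. Normexp correction moved the median of all genes from 0.03 to -0.13 for iHAC-free lines against ES cells and from 0.04 to 0.19 for iHAC1 clones against iHAC-free lines. Between 54.2% and 65.8% of spots were well above background, which limits what can be said of dim genes.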
